A study of Rattus norvegicus with 4 samples.

Results

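The contractile apparatus of smooth muscle was followed through 10 genes: the smooth muscle actins Acta2 and Actg2, the myosin genes Myh11, Myl9 and Mylk, and the actin-binding proteins Cnn1, Cald1, Tagln, Smtn and Lmod1. They were chosen by symbol, and every probe set annotated to exactly 1 of them was kept, which gave 15 of the 31099 probe sets on the array for 10 of 14217 named genes. The genes were lower after both treatments. All 10 were at least 2-fold lower with interleukin-1b (IL-1b) than with its vehicle, by 4.87-fold at the median, where 5.42% of all measured genes were that much lower. All 10 were at least 2-fold lower with platelet-derived growth factor DD (PDGF-DD) than with its vehicle, by 7.72-fold at the median, beside 4.67% of all measured genes. By the brightest probe set of each gene, the actin gene Actg2 fell furthest with both factors, and Tagln and Cald1 moved least.

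The cells were cultured smooth muscle of the rat aorta (strain Sprague-Dawley), kept 3 days with serum up to confluence and then 3 days in serum-free medium. In the IL-1b pair, 1 culture received the cytokine IL-1b at 2.5 ng/mL and the other only its vehicle, 0.1% bovine serum albumin (BSA) with 10 mM acetic acid. In the PDGF-DD pair, 1 culture received PDGF-DD, a ligand of the PDGF receptors, at 30 ng/mL and the other its vehicle, 0.01% BSA. Exposure lasted 24 h in all 4 groups, and RNA of each was read on 1 Affymetrix rat array. There are thus no replicates: no difference below carries a standard deviation or a p-value, and the number of arrays limits the precision. The passage of the cells and the animals they came from are not given in the labels. The question put to each pair was how the factor alters gene expression in these cells.

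Smooth muscle contracts when calcium-calmodulin activates myosin light chain kinase, which phosphorylates the regulatory light chain and lets the myosin heads pull on actin filaments. Cells of the arterial wall do not leave the cell cycle for good, and in culture or after injury they can lower these genes and take on a proliferative or inflammatory state, known as phenotypic modulation. Serum response factor (SRF), which binds a DNA motif called the CArG box, drives most of the genes together with its coactivator myocardin.

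Intensities are given after each array was scaled to the same trimmed mean. A floor of 28.1, the 40th percentile of all values, marks what was treated as background, and a fold against an array at the floor is a lower bound. Where a gene has several probe sets, counts, orders and medians rest on the brightest, which stands for the gene. For the 10 contractile genes the others are given beside it, and for further genes only in part. Between 58.3% and 61.5% of probe sets lay above the floor. RNA integrity can be read from the beta-actin control as its 3' over its 5' intensity. This ratio was 1.58 without and 2.05 with IL-1b, and 1.26 without and 1.37 with PDGF-DD, so it was higher on the treated array of each pair. The same ratio for Gapdh was 1.22 without and 1.27 with IL-1b, and 1.11 without and 1.07 with PDGF-DD. The part of RNA integrity in the results was not tested. All 13 smooth muscle markers, the 10 genes with Des, Synpo2 and Itga8, were above the floor on the IL-1b vehicle array, and their intensities summed to 50345 without and 14934 with IL-1b, and to 38975 without and 9174 with PDGF-DD. Des, the intermediate filament protein desmin, read 42.6 on that array and was under the floor on the other 3. Of 6 endothelial markers on the array 1, Tek, passed the floor anywhere, with summed list intensities of 37 to 62. Among 7 leukocyte markers only Cd14 and Adgre1 did, Cd14 at 1117 to 1333 on every array, while Ptprc and Cd68 stayed under the floor throughout. Adventitial fibroblast markers, 6 of 6 above the floor on at least 1 array, summed to 2335 without and 7927 with IL-1b, with Lum and Dpt the larger part of the change. In the PDGF-DD pair they summed to 1642 and 1688, but single markers moved in opposite directions: Lum read 1022 and 372, and Col15a1 279 and 1036. The part of these markers in the results was not tested. Skeletal and cardiac muscle markers, 4 of 8 above the floor on at least 1 array, summed to 451 and 282 in the IL-1b pair and 201 and 81 in the PDGF-DD pair. Myh6, Myh7, Tnni3 and Actn2 were under the floor throughout. With IL-1b the others moved in different directions: Tnnt2 went from 308 to 53.1 and Ckm from 76.7 to under the floor. Myl1 rose from under the floor to 170, and Tnnt3 stayed near the floor on both arrays. Of 10 reference genes, 0 were 2-fold different in either pair. Since whole cultures were measured, fewer contractile cells and less message per cell cannot be told apart.

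Acta2, the alpha-actin that makes up most thin filaments of vascular smooth muscle, read 9980 on the IL-1b vehicle array, 2798 with IL-1b, 5504 on the PDGF-DD vehicle array and 739 with PDGF-DD. Both treated arrays were thus below both vehicle arrays, and the vehicle arrays themselves lay 1.81-fold apart. The fall was 3.57-fold with IL-1b and 7.44-fold with PDGF-DD. The probe set was the 30th brightest of all 31099 without IL-1b, and the 3269th with PDGF-DD. A further 5 probe sets annotated to both Acta2 and the cardiac actin gene Actc1 cannot be assigned to either and were left out.

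The stretch of DNA just before the Acta2 start is shown because the CArG box of SRF was found in it; the 250 bases before the start of Actg2, the other smooth muscle actin, are set beside it. Both are from RefSeq on the rat assembly GRCr8, read 5′ to 3′ on the minus strand. Capitals mark each CArG box, searched as CC, then 6 bases of which at least 5 are A or T, then GG, a pattern that reads the same way on both strands.
Acta2, chr1:241172504-241172753: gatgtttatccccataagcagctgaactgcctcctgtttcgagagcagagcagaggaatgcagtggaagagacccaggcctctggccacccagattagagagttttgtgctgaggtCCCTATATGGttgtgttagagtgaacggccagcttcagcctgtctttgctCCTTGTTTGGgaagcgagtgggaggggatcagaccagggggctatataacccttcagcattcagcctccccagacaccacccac
Actg2, chr4:117594040-117594289: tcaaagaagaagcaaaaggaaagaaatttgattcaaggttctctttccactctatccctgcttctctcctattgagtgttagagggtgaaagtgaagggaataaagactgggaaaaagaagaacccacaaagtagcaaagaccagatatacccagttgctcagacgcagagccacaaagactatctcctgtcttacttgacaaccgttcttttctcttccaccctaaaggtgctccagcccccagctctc

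The Acta2 window held 2 matches, 134 to 125 and 84 to 75 bases before the start. Each had 1 C or G inside the core of 6, so neither was an exact CArG box. Of 33469 promoter windows of this length in the RefSeq table, 8.08% held at least 1 such match, 0.693% held at least 2, and 1.5% held an exact CArG box. Promoter windows were matched for 6 of the 10 genes, 7 windows in all: Acta2, Actg2, Cnn1, Mylk, Smtn and 2 starts of Cald1. Acta2 alone among these had a match, which says of the others only that these letters are not in this window.

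Actg2, the gamma-actin of visceral smooth muscle, which aortic cells also express, had the largest fall of the 10 genes by the probe sets that stand for them. Its intensity was 894 without and 82.7 with IL-1b, and 499 without and 26.9 with PDGF-DD. With PDGF-DD it was under the floor, so the fall of at least 17.8-fold is a bound; with IL-1b it was 10.8-fold, a little less than the 11.4-fold of a dimmer probe set of Mylk. With the floor at the 60th percentile the PDGF-DD bound of Actg2 was -2.25 in log2, short of the -3.71 of Mylk. Counting Actg2 itself, 22 of 10678 genes had a log2 ratio as low with IL-1b, and 5 of 10141 with PDGF-DD. The actins are near-identical relatives, so the probe sets of each are uncertain as measures of that gene alone; signal from the others was not tested.

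**Figure D1:**
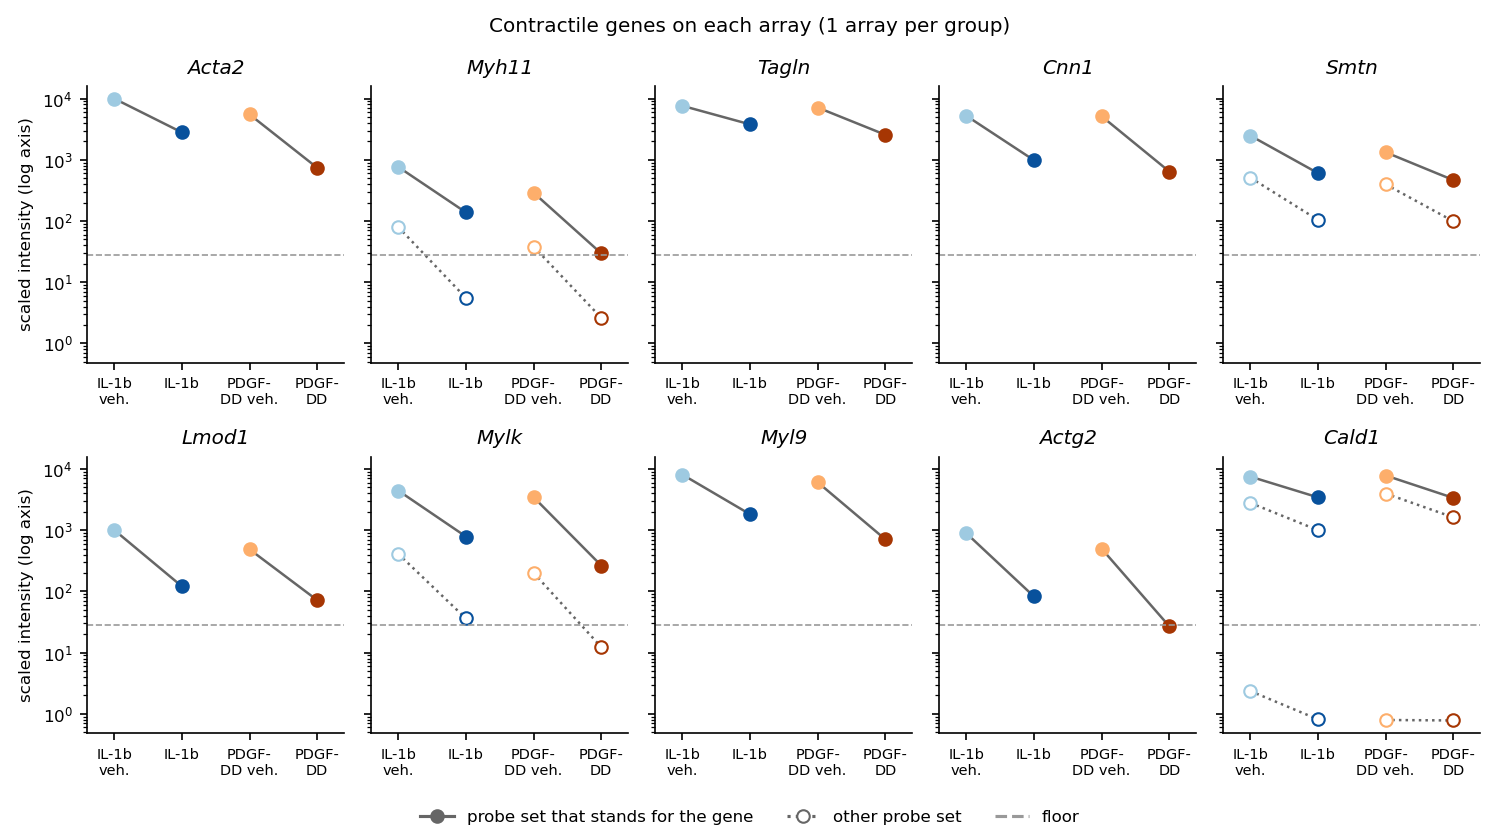
Scaled intensity (log axis) of every probe set of the 10 contractile genes on the 4 arrays, 1 array per group; filled points are the probe set that stands for the gene, open points its other probe sets, lines join the arrays of a pair and the dashed line is the floor at 28.1. In each gene the filled points of both treated arrays lie below those of both vehicle arrays, with Actg2 on the PDGF-DD array at the floor.

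Among the myosin genes, Myh11 encodes the smooth muscle myosin heavy chain, the most specific of the markers of mature smooth muscle. Its brighter probe set read 764 and 138 in the IL-1b pair, a 5.53-fold fall, and 290 and 29.5 in the PDGF-DD pair, a 9.81-fold fall that ends beside the floor. The vehicle arrays differed 2.64-fold, more than for any other of the 10 genes. The dimmer probe set gave 79.7 and 5.54 in the first pair and 38.1 and 2.61 in the second; with both treated arrays under the floor, it was at least 2.84-fold and at least 1.36-fold lower. Without PDGF-DD it lay so near the floor that a difference of 2-fold could not show.

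Myl9, the regulatory light chain that the kinase phosphorylates, had intensities of 8133 and 1827 without and with IL-1b, and 6092 and 711 without and with PDGF-DD. The fall was 4.45-fold in the first pair and 8.57-fold in the second, against a 1.33-fold difference between the vehicle arrays. Over the 4 arrays this gene followed the median course of the 10 most closely.

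Mylk, the kinase itself, went from 4445 to 789 with IL-1b (5.63-fold) and from 3472 to 265 with PDGF-DD (13.1-fold). The vehicle arrays were 1.28-fold apart by this probe set, and 2.05-fold by the second one given next. A second, dimmer probe set read 412 and 36.2 in the IL-1b pair, an 11.4-fold fall, and 202 and 12.3 in the PDGF-DD pair, a fall of at least 7.18-fold. Both probe sets place Mylk far below its vehicle with either factor, but they put the larger fall in different pairs, and the bound of the dimmer one leaves that order unsettled.

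Cnn1, calponin, which binds actin and inhibits the myosin ATPase, had nearly equal vehicle levels, 5228 in the IL-1b pair and 5134 in the PDGF-DD pair. With IL-1b it was 982, a 5.33-fold fall, and with PDGF-DD 642, an 8.0-fold fall. Since the vehicle arrays were only 1.02-fold apart, these falls hardly depended on which vehicle was used: against the vehicle of the other pair they were 5.23-fold and 8.14-fold.

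Lmod1, leiomodin, which nucleates actin filaments, read 1010 and 121 in the IL-1b pair and 488 and 72.1 in the PDGF-DD pair. It fell 8.33-fold with IL-1b and 6.77-fold with PDGF-DD. The vehicle arrays were 2.07-fold apart, with the PDGF-DD vehicle lower.

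Smtn, smoothelin, a cytoskeletal protein of contractile cells, was 2476 and 603 without and with IL-1b, and 1324 and 465 without and with PDGF-DD. The falls were 4.1-fold and 2.85-fold. Its other probe set gave 510 and 104, then 396 and 98.8, falls of 4.9-fold and 4.01-fold. Lmod1 and Smtn were the only 2 of the 10 genes with a larger fall in the IL-1b pair by the probe set that stands for the gene.

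Cald1, caldesmon, which holds actomyosin in check, and Tagln, transgelin, an actin-bundling relative of calponin, remained bright on every array. Cald1 read 7515 and 3442 in the IL-1b pair and 7835 and 3374 in the PDGF-DD pair, falls of 2.18-fold and 2.32-fold, with the treated arrays only 1.02-fold apart. Its second probe set went from 2796 to 1001 and from 3976 to 1624, falls of 2.79-fold and 2.45-fold. By this probe set PDGF-DD left 1.62-fold more signal than IL-1b. The third was under the floor on all 4 arrays and gave no fold. Caldesmon is made in a smooth muscle and a non-muscle form from the same gene, and the annotation does not say which form a probe set reads.

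Tagln was 7611 and 3786 without and with IL-1b, a fall of 2.01-fold, and 7131 and 2559 without and with PDGF-DD, a fall of 2.79-fold. The IL-1b value sits on the 2-fold line: on the values as deposited its log2 ratio was -0.98, and after quantile normalization -0.91, both short of 2-fold. The vehicle arrays were 1.07-fold apart.

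Read as a group, the 10 genes had a median log2 ratio of -2.28 with IL-1b, from -3.44 (Actg2) to -1.01 (Tagln), and all 10 were at least 2-fold lower; over all genes the median was 0.03, and 5.42% of 10678 genes were that much lower and 6.15% that much higher. With PDGF-DD the median was -2.95, from -4.15 (Actg2) to -1.22 (Cald1), again with all 10 at least 2-fold lower, beside a median of 0.01, with 4.67% of 10141 genes that much lower and 4.24% higher. At 3-fold, 8 of 10 were lower with IL-1b beside 2.37% of genes, and 7 of 10 with PDGF-DD beside 1.69%. Of 9935 genes measured in both pairs, 1.68% were at least 2-fold lower in both, as these 10 were. The pairs share no array. Across the 10 genes the log2 ratios of the pairs ran in parallel (Pearson r = 0.81, Spearman rho = 0.77; a description over genes, which are not independent replicates and were read by the same probe sets).

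**Figure D2:**
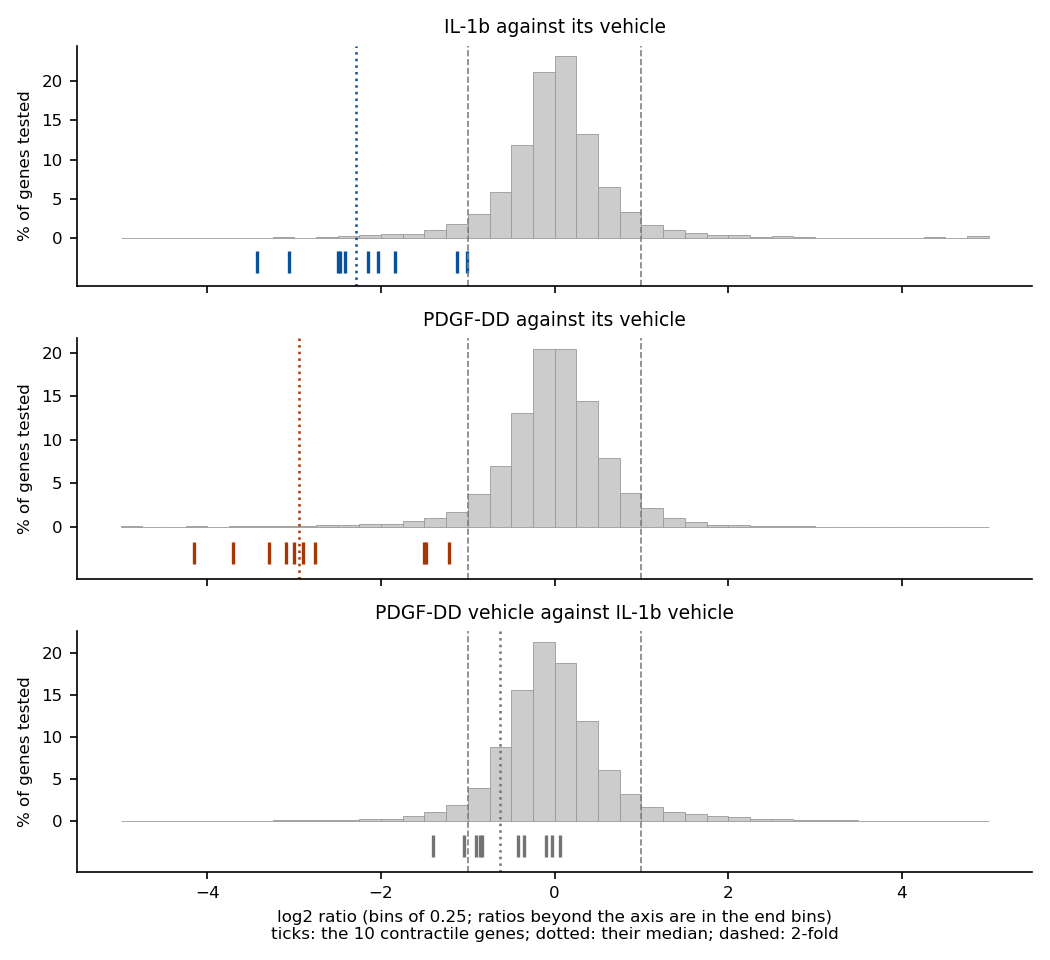
Histograms of the log2 ratio of all genes tested (grey, percent of genes per bin of 0.25), 1 panel for each factor over its own vehicle and 1 for the vehicle arrays against each other; ticks are the 10 contractile genes, the dotted line their median and dashed lines 2-fold. The ticks lie in the left tail in the upper panels, around medians of -2.28 and -2.95, and closer to the bulk in the lowest, around -0.63.

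The vehicle arrays, which received no factor, were compared in the same way. The PDGF-DD vehicle array had 9 of the 10 genes lower, and the median log2 ratio was -0.63, beside -0.05 over 10388 genes. Cald1 was the exception at 0.06, but was at -0.26 with scaling to reference genes, and Cnn1, at -0.03, was at 0.001 on the values as deposited. Among the 9, Cnn1 and Tagln lay near the typical gene, since 51.8% and 45.9% of all measured genes were as low. By the probe sets that stand for the genes only Myh11 and Lmod1 passed 2-fold, 2 of 10, beside 4.67% of 10388 genes. The dimmer probe set of Mylk also passed, at 2.05-fold lower. At 1.5-fold it was 5 of 10 beside 13.8%, and at 3-fold 0 of 10 beside 1.56%. Cnn1, Tagln and Cald1 were 1.02-fold to 1.07-fold apart, or 1.42-fold by the second probe set of Cald1. Acta2, Actg2 and Smtn were 1.79-fold to 1.87-fold lower, or 1.29-fold by the second probe set of Smtn. When the arrays were scaled to the median level of the 10 reference genes instead, 5 of 10 passed 2-fold. That scaling moved the median of all genes to -0.35. Over all genes the numbers past 2-fold went from 485 lower and 602 higher to 1043 and 407. The median level rests on the middle genes of the reference list. On the vehicle arrays these were Ywhaz and Pgk1, at log2 ratios of 0.26 and 0.38 between these arrays. By contrast, the median log2 ratio of the reference genes between the vehicle arrays was 0.02. The vehicles differ in albumin and acid, and the cultures and arrays differ too, so these sources cannot be told apart.

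Each treated array was therefore also set against the other vehicle. With PDGF-DD all 10 genes were at least 2-fold below the other pair's vehicle, with a median of -3.63 in log2, beside 10.3% of 10388 genes. With IL-1b 8 of 10 were at least 2-fold lower than on the PDGF-DD vehicle array, with a median of -1.46, beside 4.97% of 10521 genes. The 2 that missed were Acta2 at 1.97-fold and Tagln at 1.88-fold lower, and Myh11 passed at 2.1-fold. Myh11 had been 5.53-fold lower against its own vehicle, so the choice of vehicle moved its fold by more than a factor of 2. These comparisons share arrays with the earlier ones and are no independent support.

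**Figure D3:**
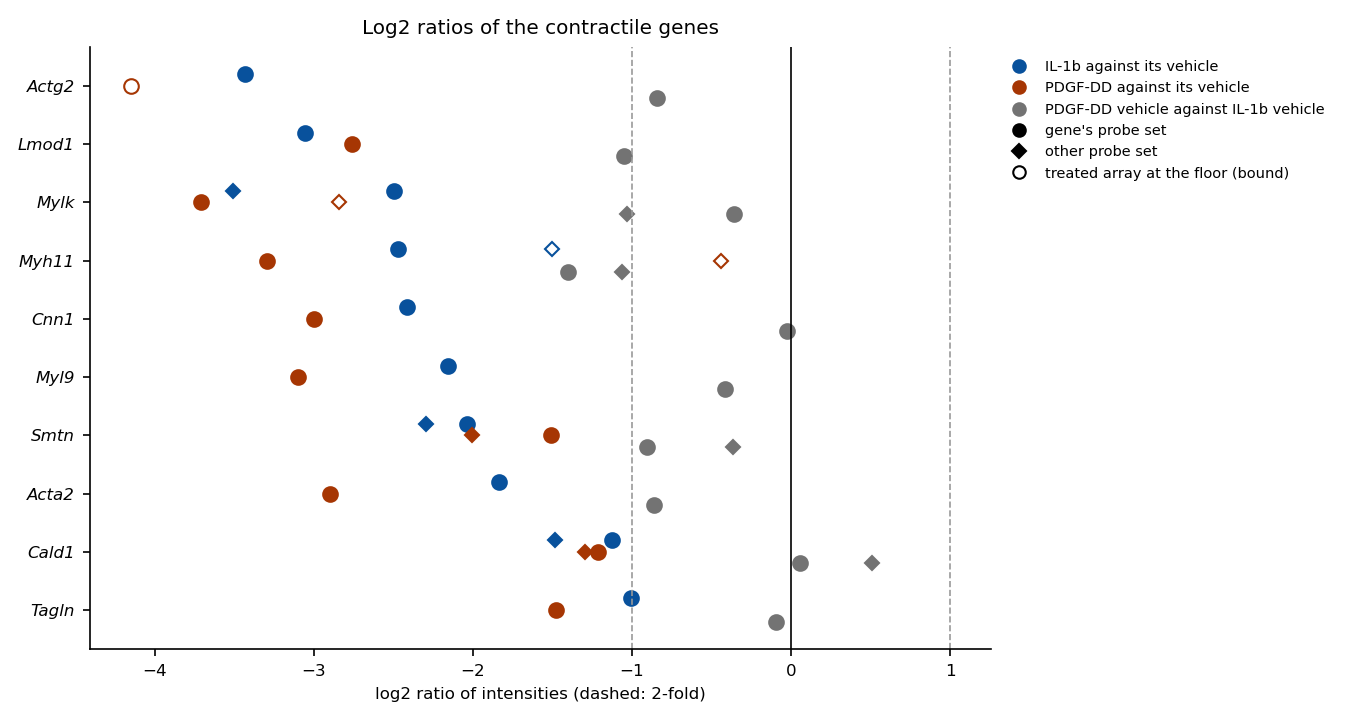
Log2 ratios of the 10 contractile genes, ordered by the IL-1b ratio, for each factor over its own vehicle and for the vehicle arrays against each other; circles are the probe set that stands for the gene, diamonds other probe sets, and open symbols mark a treated array at the floor, where the ratio is a bound. The grey circles of the vehicle ratios reach -1.40 for Myh11 and stay between -0.09 and 0.06 for Tagln, Cnn1 and Cald1, while the Cald1 diamond is at 0.51.

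Whether the factors differed in size was asked through the IL-1b log2 ratio minus the PDGF-DD log2 ratio. It was above 0, a larger fall with PDGF-DD, for 8 of 10 genes, with a median of 0.65, beside -0.01 over 9935 genes. Only Mylk (1.22) and Acta2 (1.06) passed 2-fold, 2 of 10, beside 8.44% of genes, and Acta2 was at 0.998 on the values as deposited and 0.87 with scaling to reference genes, both short of it. The brighter probe set of Myh11 gave 0.82. The second probe set of Mylk gave -0.67 with the PDGF-DD array at the floor, and that of Cald1 -0.19, beside 0.09 by the brighter. That of Myh11 gives no comparison of the factors, since both treated arrays were under the floor. On intensities alone, the probe sets that stand for the 10 genes were all lowest on the PDGF-DD array, though for Cald1 by 1.02-fold and not by its second probe set. Of the genes, 5 of 10 were at least 2-fold lower there than on the IL-1b array, beside 8.68% of 10507 genes. They were Acta2 (3.78-fold), Myh11 (4.67-fold), Mylk (2.98-fold), Myl9 (2.57-fold) and Actg2 (at least 2.94-fold). In the same comparison the reference genes had a median log2 ratio of -0.29, with 1 at least 2-fold lower, beside -0.08 over all genes. For 9 of the 10 genes the order was IL-1b vehicle, PDGF-DD vehicle, IL-1b, PDGF-DD from high to low, and for Cald1 the vehicle arrays, 1.04-fold apart, changed places. Neighbours in that order were often less than 2-fold apart, as the treated arrays were for Tagln (1.48-fold), Cnn1 (1.53-fold), Smtn (1.3-fold) and Lmod1 (1.68-fold).

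Genes with more than 1 measured probe set show how far the probe sets of a gene differ on the same arrays. This is no measure of the spread between cultures or arrays. Over 3158 such genes the probe sets of a gene spanned 0.31 at the median on the log2 scale with IL-1b, and 0.90 at the 90th percentile. Among the 4 contractile genes with such pairs the span was 0.26 for Smtn, 0.35 for Cald1, 0.96 for Myh11 and 1.02 for Mylk. With PDGF-DD it was 0.49, 0.08, 2.85 and 0.87, beside a median of 0.29 over 3068 genes. The wide spans of Myh11 and Mylk come with dim second probe sets that reached the floor on a treated array, except that of Mylk with IL-1b, where both arrays were above it.

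Other contractile and smooth muscle genes, a list of 37 symbols of which 32 were on the array, moved mostly downward, and not all of them. In the IL-1b pair 17 of 32 measured genes passed 2-fold downward and 0 upward, with a median log2 ratio of -1.08. With PDGF-DD it was 17 of 29 and 0, with a median of -1.10. Over all genes 5.42% and 4.67% were that much lower, and 6.15% and 4.24% higher. Of the 29 list genes measured in both pairs, 13 were at least 2-fold lower in both, beside 1.68% of all genes. Aoc3, an amine oxidase of the smooth muscle surface, read 4277 and 298 in the IL-1b pair and 1344 and 159 in the PDGF-DD pair, falls of 14.3-fold and 8.43-fold. The first was larger than that of any of the 10 genes by the probe sets that stand for them. A second probe set of Aoc3 fell 10.8-fold with IL-1b, as Actg2 did, and at least 7.35-fold with PDGF-DD. Casq2, a calcium-binding protein of the sarcoplasmic reticulum, fell 7.81-fold and 6.28-fold, and the integrin Itga8 3.18-fold and 7.67-fold. The second probe set of Casq2 gave 7.04-fold and 10.6-fold, so the larger fall was in the other pair. Synpo2, an actin-bundling protein, fell 11.4-fold and 2.27-fold, with its vehicle arrays 4.53-fold apart. Its other probe sets gave IL-1b log2 ratios between -1.62 and -0.50, the last a bound, and 2 of them PDGF-DD ratios of -0.28 and 0.04. The tropomyosins Tpm1 and Tpm2, named after their values were seen, stayed short of 2-fold at log2 ratios of -0.84 and -0.66 with IL-1b and -0.84 and -0.98 with PDGF-DD. Likewise named afterwards, Jph2, a junctophilin, had 0.93 with IL-1b and 0.01 with PDGF-DD, and the small heat shock protein gene Hspb7 had 0.39 in both.

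Most enzymes that set the phosphorylation of the light chain stayed within 2-fold. Of 18 measured genes 3 passed 2-fold downward with IL-1b and 0 upward (median -0.22). Over all genes 5.42% were that much lower and 6.15% higher, with a median of 0.03. Of 19 with PDGF-DD 2 were lower and 1 higher (median -0.09), beside 4.67%, 4.24% and a median of 0.01. Ppp1r14a, CPI-17, which inhibits myosin phosphatase and so favours contraction, was the one with the largest change, at 854 and 156 in the IL-1b pair and 777 and 136 in the PDGF-DD pair, falls of 5.49-fold and 5.7-fold. The kinase Camk2g fell 2.46-fold and 2.19-fold. Ppp1r12a, the targeting subunit of myosin phosphatase, was 2.13-fold and 1.63-fold lower. Ppp1r14c, a relative of CPI-17, was 2.15-fold higher with PDGF-DD at a low level, 124 against 57.7.

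Relatives of the 10 genes from non-muscle and striated muscle cells had a median log2 ratio of -0.50 with IL-1b. Of 16 measured, 4 passed 2-fold downward and 0 upward, beside 5.42% and 6.15% of all genes. With PDGF-DD the median was -0.35, with 3 of 15 lower and 0 higher, beside 4.67% and 4.24%. Acta1, skeletal alpha-actin, was lower by 18.3-fold and 30.1-fold, at 4782 and 261 in the IL-1b pair and 3526 and 117 in the PDGF-DD pair. As for the smooth muscle actins, signal from other actins in this probe set was not tested. Myh10, a non-muscle myosin heavy chain, fell 3.86-fold and 2.98-fold. Mylk3, the cardiac light chain kinase, fell at least 9.48-fold with IL-1b and was 1.57-fold lower with PDGF-DD, with the vehicle arrays 5.02-fold apart; its other probe set was at least 2.19-fold lower with IL-1b. Smtnl2, a smoothelin-like gene, fell 2.63-fold and at least 4.31-fold. Others stayed within 2-fold, as did Tagln2, the transgelin of non-muscle cells, at log2 ratios of 0.89 and -0.18, and the cytoplasmic actin gene Actg1, at -0.22 and -0.35; these last were named after their values were seen.

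**Figure D4:**
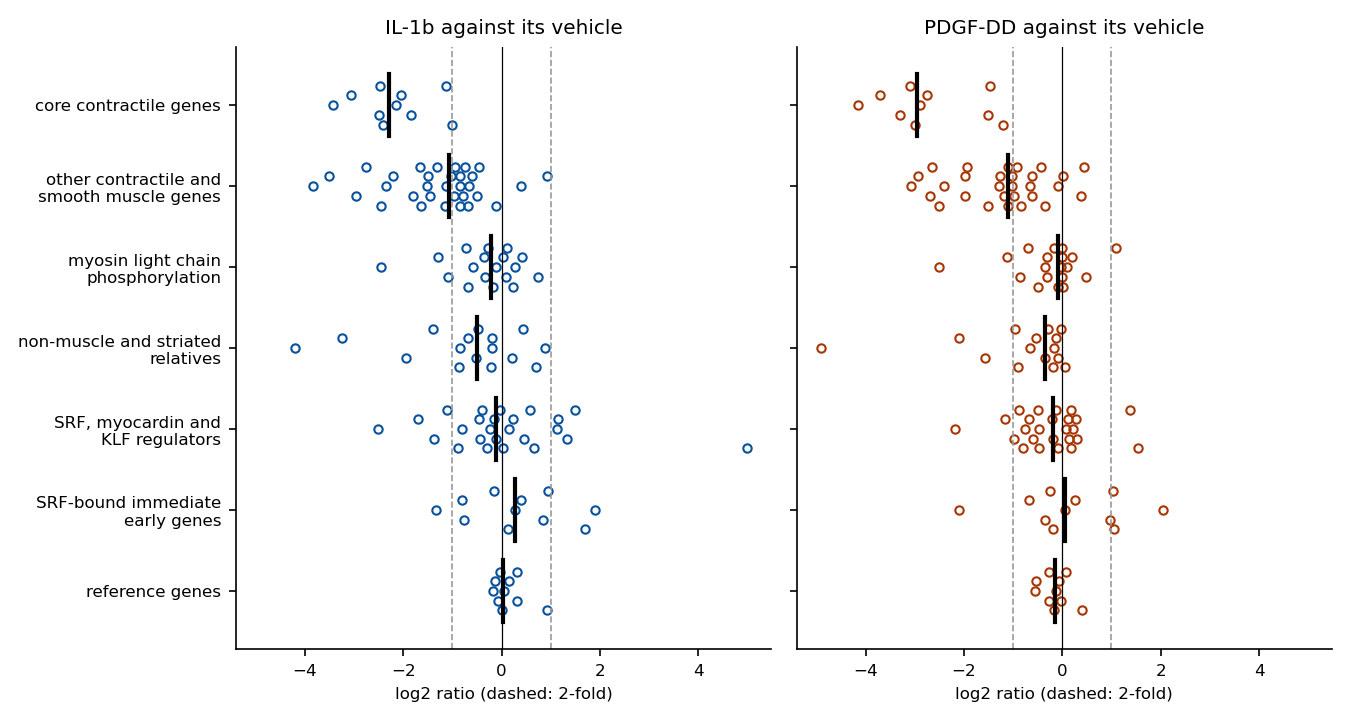
Log2 ratios over the vehicle with IL-1b (left) and PDGF-DD (right) for the 10 contractile genes and 6 further gene lists; each circle is a measured gene, the bar the list's median, and dashed lines mark 2-fold. The core genes have medians of -2.28 and -2.95 and the other smooth muscle genes -1.08 and -1.10, while the reference genes lie at 0.03 and -0.15.

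Regulators of the group did not move one way. Of 25 measured SRF, myocardin and KLF family genes, 4 passed 2-fold downward and 5 upward with IL-1b (median -0.12). With PDGF-DD 2 were lower and 2 higher (median -0.20). Over all genes 5.42% were that much lower and 6.15% higher with IL-1b, and 4.67% and 4.24% with PDGF-DD. Myocd, myocardin, read 924 and 161 in the IL-1b pair and 296 and 169 in the PDGF-DD pair, so it fell 5.74-fold with IL-1b and was 1.75-fold lower with PDGF-DD, with its vehicle arrays 3.13-fold apart. Srf had log2 ratios of -0.80 and -0.67, and its other measured probe set -0.08 and -0.21. Mrtfa, a relative of myocardin that senses free actin, had -0.46 and -1.16. Klf4, a repressor of contractile genes, was at the floor on the IL-1b vehicle array and 892 with IL-1b, at least 31.8-fold higher, and 444 and 1283 in the PDGF-DD pair, 2.89-fold higher. Set against the PDGF-DD vehicle, the IL-1b array was 2.01-fold higher for Klf4. Klf5, at 24.4 to 82.8 on the 4 arrays, was at 1.37 with PDGF-DD and at the floor with IL-1b, while its other measured probe sets gave bounds of 0.81 and 0.16 with PDGF-DD. Mrtfb had no probe set annotated to it alone and so gave no value. Mef2c, a muscle transcription factor, was at -1.71 and 0.18.

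The genes whose course over the 4 arrays was most like that of the 10 were sought among 9155 other genes above the floor on every array, by the Euclidean distance between log2 values centred over the arrays and the median centred profile of the 10 genes. The nearest were Prss23 (distance 0.38), Vwa1 (0.50), Neurl2 (0.56), Tmtc1 (0.61) and C19h1orf198 (0.62). For comparison, the 10 genes themselves lay at 0.28 (Myl9) to 1.68 (Cald1) from their own median. Prss23, a serine protease, read 864 and 201 in the IL-1b pair and 446 and 93.4 in the PDGF-DD pair, and Vwa1, a matrix protein, 650 and 107, then 457 and 45.7. With 4 arrays many genes can share such a course, and the likeness is a description only.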

How the data were processed

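Per the submitters' processing notes, the authors used MAS5; the deposited table holds a linear intensity per probe set, 1 array per group. The version and target intensity of MAS5 are not given. All 4 deposited columns had a median of 53.3. In Python 3.11.15 with pandas 2.3.3, each array was scaled to a common mean after trimming 2% at each end (factors 0.951 to 1.03), and values under the 40th percentile were set to it. Gene symbols came from GEO's platform annotation, dated 2016, and all 10 gene identifiers gave the same symbol in the RefSeq table of GRCr8. Of several probe sets, the brightest by mean log2 intensity stood for its gene. A gene counted as measured when above the floor on at least 1 array compared, and as different at 2-fold or more; no test was run, as there are no replicates. The steps were tested on simulated data.

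The genes named are the 10 contractile genes, up to 4 per further list with the largest ratio, 6 regulators and the 5 nearest profiles; exceptions are stated. The genes and lists were chosen with earlier results of these data known. Alternatives changed the scaling, floor, probe set, vehicle and fold. Scanner files were not used here.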

Additional observations from a re-analysis of the deposited data

Results flagged for a closer look

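Klf15, a Krüppel-like factor of muscle, had opposite directions with the factors: its log2 ratio was 1.15 with IL-1b and -2.18 with PDGF-DD, each against its vehicle. It read 440 and 976 in the IL-1b pair and 424 and 93.5 in the PDGF-DD pair, and its second measured probe set gave 0.78 and -1.74. The difference was not tested, since each group is 1 array.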

How the results depend on the processing

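The count of contractile genes at least 2-fold lower was 8 to 10 of 10 with IL-1b and 7 to 10 with PDGF-DD over the alternatives in scaling, floor, probe set, vehicle and fold, and the median log2 ratios lay between -2.42 and -1.46 and between -3.63 and -2.23. Between the vehicle arrays the count of 2 became 5 with scaling to the median level of the reference genes, 5 at 1.5-fold and 0 at 3-fold. With the floor at the 60th percentile the difference between the factors turned for Myh11, to -1.01, and for Actg2, to -0.84. By the other probe set it turned for Myh11, to -1.06, for Mylk, to -0.67, and for Cald1, to -0.19, and with scaling to reference genes for Cald1, to -0.10. Except for Cald1, the PDGF-DD array was at the floor in each, and -1.06 for Myh11 is only the difference between the vehicle arrays. The other 2 sign changes are those of Cald1 and Cnn1 between the vehicle arrays. Of 256 single-gene values, 239 kept both direction and side of 2-fold, and 8 changed sign. The median difference between the factors lay between 0.28, with the higher floor, and 0.68, beside 0.65. Signal over background limits Actg2 and the dimmer probe sets of Myh11 and Mylk, which were under the floor with PDGF-DD, and the brighter one of Myh11, which was just above it. No paired analysis was possible because each group had 1 array.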

Other observations

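Immediate early genes that SRF also binds, which respond within minutes to growth factors, did not follow the contractile genes at 24 h. Of 11 measured, 2 were at least 2-fold higher and 1 lower with IL-1b (median log2 ratio 0.27), beside 6.15% and 5.42% of all genes. With PDGF-DD 3 were higher and 1 lower (median 0.05), beside 4.24% and 4.67%. Egr1 read 344 on the PDGF-DD vehicle array and 1418 with PDGF-DD, 4.13-fold higher, and 696 and 918 in the IL-1b pair, with its vehicle arrays 2.03-fold apart. Egr2 was higher by at least 3.75-fold in the IL-1b pair and by 1.96-fold in the PDGF-DD pair. Junb was 3.22-fold higher with IL-1b and 1.19-fold lower with PDGF-DD. Dusp1, a phosphatase of MAP kinases, fell 2.53-fold and 4.28-fold, the direction of the contractile genes.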
